A study of Zea mays with 29 samples.

Results

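Leaf RNA of maize (Zea mays) plants trisomic for the long arm of chromosome 1, here named 1L, was set against leaf RNA of plants monosomic for it, so that 3 copies are compared with 1. The trisomic and monosomic plants come from the second of 2 dosage series, and their libraries were chosen by their ploidy labels and sample titles. The comparison holds 7 libraries, 3 trisomic and 4 monosomic, of 27 RNA libraries and 29 libraries in all. It is the widest change in 1L copy number within series 2 and does not use the diploid controls in its difference. The 3 diploid libraries of series 2, with 2 copies of 1L, entered the estimate of spread, the scaling and the choice of genes tested. Further down their levels are set beside those of the other 2 groups. The sources used here do not give the inbred background, plant age or the stocks from which the aneuploids were raised. The series design counts the libraries as biological replicates.

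A plant that is monosomic or trisomic for a chromosome arm is aneuploid, with 1 segment of the genome out of balance with the rest. Genes on the varied segment often follow their own copy number, which is called a gene dosage effect, while dosage compensation denotes a level that stays the same when the copy number changes. Genes on other chromosomes can change as well, and such effects in trans are well known from maize aneuploids. A trans effect is called inverse when the gene falls as the varied segment rises.

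The count table lists 40306 gene models by identifiers that the files pair with no name, product or position, and 0 of them occur in the RefSeq table of the B73 assembly. Genes of 1L were therefore taken as a single run of 3187 consecutive identifiers, called the block below. Earlier work on these data placed its edges from the response of series 1 tetrasomics, and series 2 libraries were not used for them. It makes up 7.91% of the table, and a copy ratio of 3 applies to it and of 1 to all other genes. No file ties the block to 1L by position, and its identity with the varied segment rests on how it responds. Leaf marker genes could not be looked up for the same reason, so the tissue label was not checked.

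The trisomic libraries held 17660534, 17651833 and 16492341 counted reads, and the monosomic libraries 17725245, 17055415, 14115560 and 19860440. Root mean square distances between libraries over genes, in log2 CPM (read counts after scaling to equal library size), were 0.53 to 0.55 among trisomics and 0.84 to 1.18 between trisomics and monosomics. Monosomic replicate 3 stood apart from the other monosomics, at 0.77 to 0.94, where those lay 0.57 to 0.78 from each other. It also had the fewest reads, and results are given without it where that moves them.

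Reads from the block made up a larger share of all counted reads with 3 copies of 1L than with 1. The share was 11.57, 11.85 and 11.72% in the trisomic libraries, against 4.34, 4.29, 3.919 and 4.283% in the monosomic libraries. All trisomic libraries lay far above all monosomic ones, and monosomic replicate 3 was the lowest. The mean was 11.71 ± 0.14% in trisomics and 4.208 ± 0.19% in monosomics (SD, n = 3 and 4), a ratio of 2.78. The exact two-sided permutation p was 0.0571, and 3 against 4 libraries allow no smaller value. A share needs no normalization, but it is bounded, so the ratio of block reads to all other reads is more directly set against the copy ratio. That ratio was 3.02 times as high in trisomics as in monosomics (exact permutation p = 0.0571). Both measure RNA and not copy number, with the most weight on abundant genes. In whole leaf, fewer cells of a type and less RNA per cell cannot be told apart.

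Counted gene by gene, so that abundant genes do not dominate, the block was higher by slightly less than its copy ratio. The mean log2 CPM of block genes minus that of the other genes was 0.703, 0.68 and 0.705 in the trisomic libraries, against -0.767, -0.761, -0.775 and -0.751 in the monosomic libraries. The SD within a group was 0.014 in trisomics and 0.01 in monosomics (n = 3 and 4), while the groups were 1.46 apart (SE 0.0094, exact permutation p = 0.0571). This difference is a 2.75-fold change and 92.1% of the log2 of the copy ratio, 1.585. With a prior count of 0.5 in place of 2 added before the logs, it was 1.519, so the size of the shortfall depended on this setting. Monosomic replicate 3, which stood apart in other measures, did not do so in this one.

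**Figure D1:**
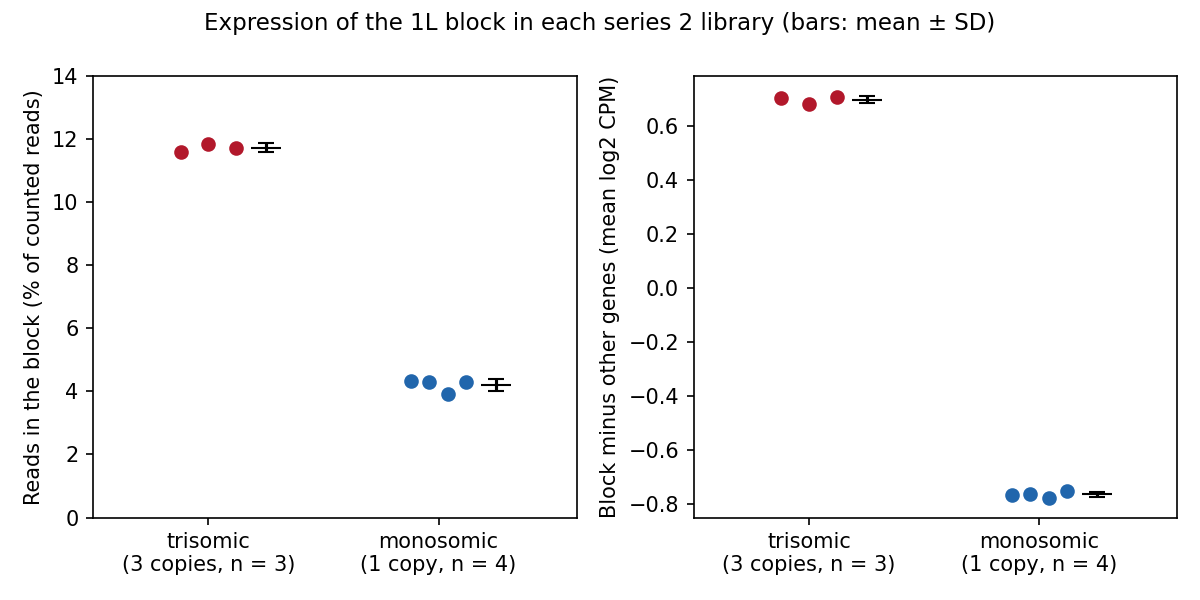
Share of counted reads that fall in the 1L block (left, per cent) and mean log2 CPM of block genes minus that of other genes (right), 1 point per library, with mean ± SD. Trisomic libraries sit at 11.57 to 11.85% and monosomic libraries at 3.919 to 4.34%, with no overlap in either measure.

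Most single genes of the block could be told apart between the 2 groups. In an edgeR quasi-likelihood test over 21825 genes, with Benjamini-Hochberg adjustment and a threshold of 0.05, 14.8% of all genes tested were called. In the block 1386 of 1797 tested genes rose in trisomics, or 77.1%, where 9.81% of all genes rose. Another 8 block genes fell, and 4.95% of all genes did. The remaining 403 tested genes of the block did not pass, and 1390 identifiers of the block had too few reads to be tested. The count over all genes was 3222, and 2044 without trisomic replicate 2. Normalized counts of the groups did not overlap for 83.1% of block genes tested, against 25.9% of all genes.

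The response of block genes was centred just under the copy ratio. The median log2 fold change was 1.43, a 2.7-fold difference, with quartiles of 1.08 and 1.74. Outside the block the median was -0.09, with quartiles of -0.38 and 0.18. Both medians moved with the scaling, and were 1.503 and -0.03 with TMM factors computed on genes outside the block. Changes between 2-fold and 4-fold were seen in 64.1% of block genes and 3.78% of other genes. The spread was smaller among precisely measured genes. Of the 877 block genes with a standard error below 0.25, 81.6% lay between 2-fold and 4-fold and 6 genes had a log2 fold change below 0.

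**Figure D2:**
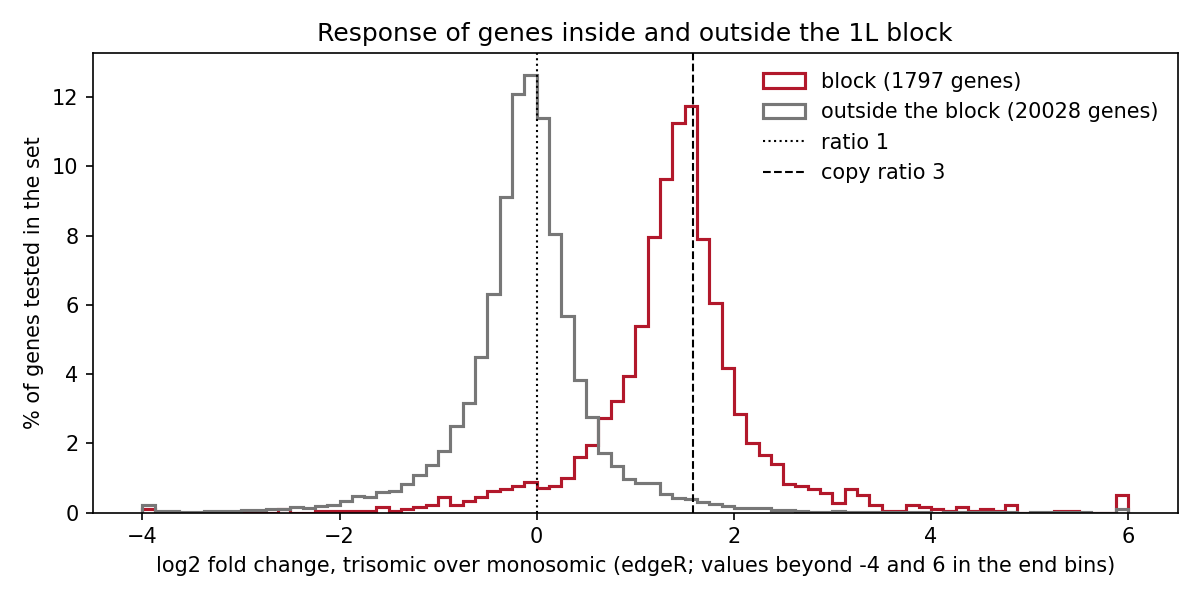
Distribution of log2 fold changes, trisomic over monosomic, for 1797 block genes and 20028 other genes tested, as per cent of each set per bin. The block is centred near the copy ratio of 3 with a median of 1.43, and the other genes near 0 with a median of -0.09.

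The 95% interval of each gene's log2 fold change was set against 0 and against the log2 of the copy ratio. The interval held the copy ratio and excluded 0 for 1180 of 1797 block genes, 65.7%, here called proportional, against 4.05% of outside genes. It held 0 and excluded the ratio for 171 genes, 9.52%, here called compensated, against 74.2% of outside genes. These intervals are not adjusted for the number of genes. Proportional genes had a median level of 13.3 CPM and compensated genes 2.84 CPM. Intervals of 192 genes lay between 0 and the ratio, those of 154 beyond the ratio, those of 19 (1.06%, against 13.7% of outside genes) below 0, and those of 81 held both values. The median half-width of an interval was 0.56, and the values it was set against are 1.585 apart.

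A direct test of proportionality put the copy ratio into the null, so that a block gene was called only when its change differed from 3-fold, and adjusted p over all 21825 genes. In this edgeR test 6.78% of all genes were called. In the block 143 genes, 7.96%, lay below the ratio, where 4.04% of all genes were called below their expected ratio. Another 63 block genes, 3.51%, lay above it, where 2.74% of all genes did. The other 1591 block genes did not differ detectably from the ratio, which does not show that each follows it. These counts moved with the scaling and the libraries used. With TMM factors computed on genes outside the block, 120 block genes lay below the ratio and 68 above it. Below the ratio 74, 42 and 61 genes were called without trisomic replicates 1, 2 and 3. Above the ratio there were 41, 19 and 25 without the same replicates, and 34 and 41 without monosomic replicates 1 and 2. Without monosomic replicate 3 there were 176 below and 67 above.

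Genes below the ratio went both ways around an equal level at 3 copies and 1. Their median log2 fold change was 0.03, with quartiles of -0.53 and 0.57. Of the 143, 76 differed by less than 1.5-fold between trisomics and monosomics, 35 were over 1.5-fold higher in trisomics and 32 over 1.5-fold lower. In the first test 28 of them rose and 8 fell. Diploids did not share this equal level. The median step of the 143 genes was 0.36 (log2) from 1 to 2 copies and -0.15 from 2 to 3. The diploid mean lay between the other groups for 60 of them, 42%. These steps were not tested. Genes above the ratio had a median log2 fold change of 3.28, or 3.23 with genes that had no reads in monosomics set at a floor of 3 counts per library. All 63 of them changed more than 4-fold, and 38 more than 8-fold. As mainly large departures from the ratio pass the test, the sizes in both sets describe the called genes and not block genes in general. The median level was 7.72 CPM for genes below the ratio and 9.12 CPM for those above it, against 11.4 CPM for the block. By quartile of level in the block, from lowest to highest, 48, 38, 33 and 24 genes lay below the ratio.

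Position within the block made a modest difference at its start. The tested genes were split into runs of 300 identifiers. The first and second runs had median log2 fold changes of 1.29 each, and the 9 later runs lay between 1.39 and 1.52. Of the 143 genes below the ratio, 48 were among the first 600 identifiers, 33.6%, where 17.9% of the block's tested genes lie. Of those 48, 7 were among the first 30 identifiers, whose 8 tested genes had a median log2 fold change of -0.27. Genes above the ratio did not show such a shift to the start, with 13 of 63, or 20.6%. No test was made of these differences.

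The edges were looked at in the identifiers on each side of them. The 24 tested genes of the 50 identifiers before the block had a median log2 fold change of 0.07, and the 19 of its first 50 had 0.69. The first 30 identifiers had the median of -0.27 given above, and the 12 of the next 30 had a median of 1.33. These medians would place the start of the response in series 2 about 30 identifiers inside the edge placed in series 1. That rests on 8 tested genes, 1 of them over 2-fold higher, and a difference between the series was not tested. With the block's start moved there, 135 genes lay below the copy ratio in place of 143. At the other end the last 50 identifiers had a median of 1.36 over 29 genes, and the 50 after the block had 0.04 over 37 genes.

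Expression level and gene length changed the spread of the response but hardly its centre. Block genes in the lowest quartile of mean level, at 0.322 to 3.54 CPM, had a median log2 fold change of 1.42 with quartiles of 0.67 and 2.03. Those in the highest quartile, above 29.4 CPM, had a median of 1.44 with quartiles of 1.19 and 1.67. Calls in the first test covered 52% of the lowest quartile and 91.3% of the highest. By gene model length, the median was 1.46 in the shortest quartile and 1.37 in the longest.

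No window that lay wholly outside the block came near its response. In windows of 100 consecutive identifiers with at least 20 tested genes, the median log2 fold change was 1.23 to 1.57 in 31 windows inside the block. In 370 windows outside it, the median ran from -0.29 to 0.12, and the 2 sets of windows did not overlap. Windows that straddle an edge of the block are in neither set. In single libraries the median departure of an outside window from the mean of all libraries ran from -0.26 to 0.45, the highest in monosomic replicate 4.

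**Figure D3:**
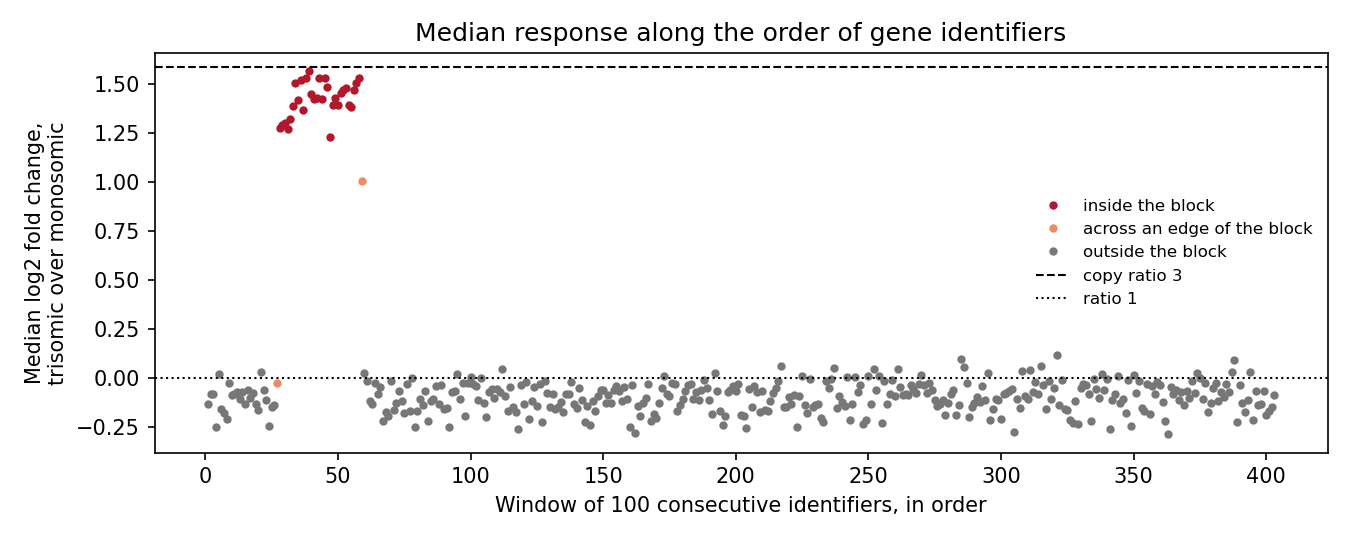
Median log2 fold change, trisomic over monosomic, in windows of 100 consecutive gene identifiers in their order. Inside the block the windows lie at 1.23 to 1.57, just under the copy ratio of 3, and outside it at -0.29 to 0.12.

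Genes outside the block, which have the same copy number in both groups, changed in both directions. Of 20028 tested, 756 rose and 1072 fell in trisomics, 9.13% in all, where 14.8% of all genes were called. Which direction prevailed depended on the scaling. With TMM factors computed on genes outside the block, 927 rose and 860 fell, and the median outside the block was -0.03 in place of -0.09. Without trisomic replicate 1 the counts were 574 and 567. Without trisomic replicates 2 and 3, 354 and 437 rose and 441 and 607 fell. When block genes were tested against their copy ratio, so that their dosage effect did not ease the adjustment for the others, 534 outside genes rose and 739 fell.

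The changes outside the block were often large. Genes that rose had a median log2 fold change of 1.29, and 284 of 756 changed more than 3-fold, which exceeds the change in copy number itself. Genes that fell had a median of -1.27, and 388 of 1072 fell more than 3-fold. Called genes were expressed at lower levels than outside genes in general, with a median of 5.76 CPM for those that rose and 8.17 CPM for those that fell, against 10.7 CPM for all tested outside the block. Since only large differences pass at low levels, these sizes describe the called genes and not the typical response in trans. Among the 9993 outside genes with a standard error below 0.25, 337 were over 1.5-fold higher and 503 over 1.5-fold lower.

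The diploid libraries, whose own counts did not enter the difference between trisomics and monosomics, mostly lay between them for the called genes. Among block genes that rose, the diploid mean lay between the other groups for 1348 of 1386, 97.3%, against 87% of all block genes tested. The genes that rose were chosen for a gap between trisomics and monosomics, which favours such a position. From 1 to 2 copies the median step was 0.99 (log2), and from 2 to 3 copies it was 0.56, both measured against the same diploids. The diploid mean stood at a median of 64.1% of the way from monosomic to trisomic, where strict proportion to copy number gives 63.1%.

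For most called genes outside the block the diploid mean also lay between the other groups. These genes were chosen for a gap between trisomics and monosomics, which favours such a position, so the shares do not test an order by copy number. The diploid mean lay between for 685 of the 756 that rose and 1027 of the 1072 that fell, or 90.6 and 95.8%, against 51.4% of all outside genes tested, a share that includes genes whose groups hardly differ. Median steps from 1 to 2 and from 2 to 3 copies were 0.65 and 0.54 for genes that rose. For genes that fell they were -0.64 and -0.51. Diploid replicate 1 was the nearest of the diploids to the monosomics in both sets, at median levels of 0.503 and -0.487 above or below the monosomic mean. The other diploids stood at 0.807 and 0.668 in genes that rose, and at -0.715 and -0.672 in genes that fell.

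**Figure D4:**
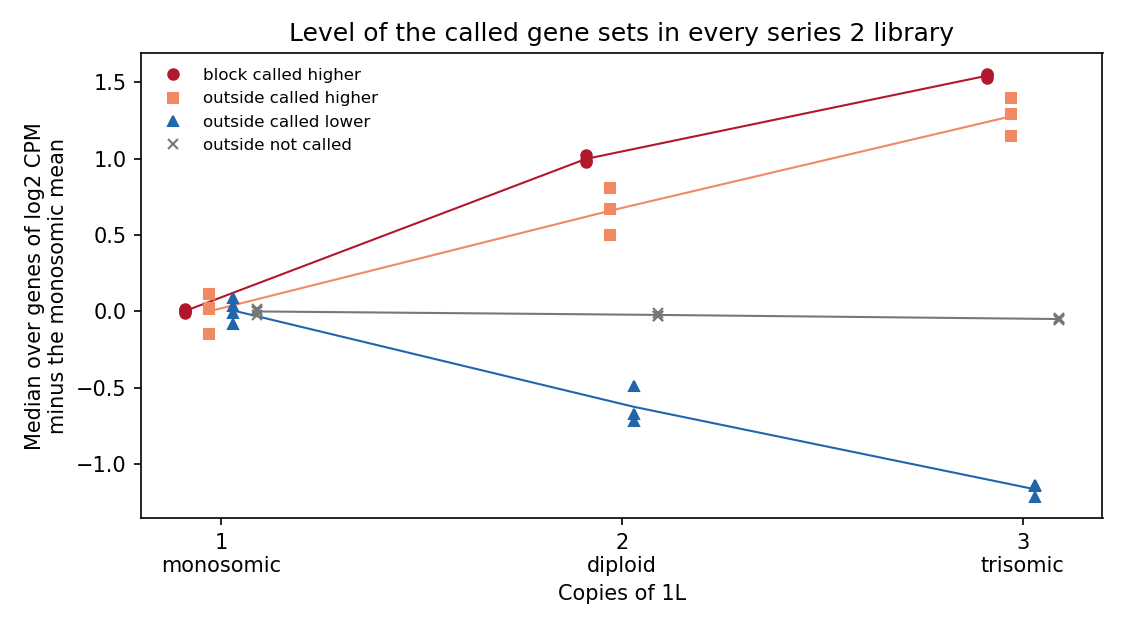
Median over genes of log2 CPM minus the monosomic mean, 1 point per library, at 1, 2 and 3 copies of 1L, for sets called in trisomics against monosomics. Lines join group means, and diploid libraries lie between the other groups in the 3 called sets drawn.

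Series 1 shares no library with series 2 and allowed the called genes to be looked up in other plants with more 1L copies. Among the 1028 outside genes that fell here and were tested there, 84.3% were lower in tetrasomics than in diploids, against 56.9% of all outside genes. In series 1 trisomics 81% were lower, against 54%, and in disomic haploids 73.5% were lower than in haploids, against 56.3%. Tetrasomics and trisomics of series 1 share their diploids. The fall passed the edgeR test in tetrasomics for 114 genes, 11.1%, where 1.66% of all genes were called lower.

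Genes that rose outside the block were looked up in the same way. Of 728 tested in series 1, 72.7% were higher in tetrasomics than in diploids, against 43.1% of all outside genes. In trisomics 85% were higher, against 46%. In disomic haploids the share was 55.6%, against 43.7% of all outside genes. In tetrasomics 37 of them, 5.08%, were called higher, where 4.58% of all genes were, block included, and 0.865% of the outside genes. Median log2 fold changes of this set were 0.31 in tetrasomics, 0.41 in trisomics and 0.09 in disomic haploids, the last against haploids. The median in single series 1 libraries, relative to the diploid mean, was 0.296, 0.364 and 0.391 in tetrasomics, against 0.109, -0.011, 0.007 and -0.08 in diploids. For genes that fell it was -0.495, -0.376 and -0.546 in tetrasomics, against -0.297, 0.069, 0.074 and 0.206 in diploids. Tetrasomics did not overlap the diploids in either set, and the closest diploid was replicate 1, which stands apart in that series. For genes that fell the gap was narrow, from -0.376 to -0.297, and smaller than the spread among the diploids. Series 1 trisomic replicate 1 lay within the diploid range in both sets, at 0.099 and -0.12, while the other trisomics were at 0.366 to 0.512 and -0.466 to -0.208. Of these, the replicate at -0.208 also lay above diploid replicate 1 for genes that fell. The disomic haploids, at 0.143 and 0.118 over the haploid mean for genes that rose, were below haploid replicate 3, at 0.177. For genes that fell they stood at -0.457 and -0.398, below haploids at 0.109, 0.106 and -0.2.

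Block genes that departed from the copy ratio in series 2 were also looked up in series 1. The block's edges come from series 1 tetrasomics, but the split within it does not. In tetrasomics against diploids, a copy ratio of 2, the median log2 fold change was 0.41 over 137 genes from below the ratio and 1.33 over 62 from above it. It was 0.91 over the 1571 that did not depart. The order was alike in disomic haploids against haploids, at 0.46, 1.13 and 0.91, and in trisomics against diploids, at 0.15, 1.17 and 0.52. In single tetrasomic libraries the genes from below the ratio had medians of 0.265, 0.534 and 0.515 over the diploid mean, and those from above it 1.422, 1.34 and 1.227. The values of the 2 sets did not overlap.

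**Figure D5:**
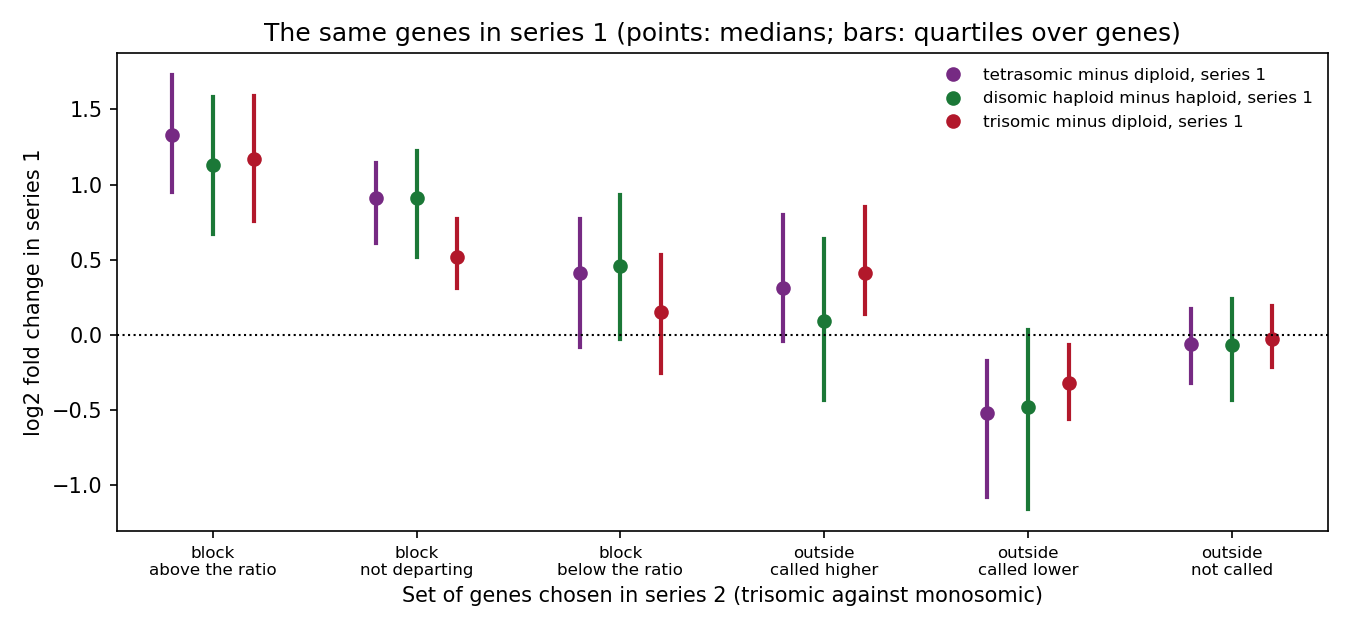
Log2 fold changes in series 1 of gene sets chosen in series 2, as medians (points) and quartiles over genes (bars), for tetrasomics minus diploids, disomic haploids minus haploids and trisomics minus diploids. In tetrasomics the medians were 1.33, 0.91 and 0.41 for block genes above, not departing from and below the copy ratio, and 0.31 and -0.52 for outside genes that rose and fell.

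Single genes are named by identifier only, as the largest called rise and fall inside and outside the block. They had to average 5 CPM or more over the 7 libraries and separate the groups fully. The rises were picked from 1060 genes inside and 385 outside the block, and the falls from 4 and 640. Each named gene reached the mean of 5 CPM through the group where it was high. As picked extremes, their folds and p-values describe them and are no further support for a difference between the groups. Inside the block the largest rise was that of Zm00004b003818. It had 21.4, 26.6 and 19 CPM in trisomics, against 0 reads in all 4 monosomic libraries. Against a floor of 3 counts per library it was at least 131-fold higher in trisomics (edgeR adjusted p = 0.00431). The diploids were split, with 0, 178 and 156 reads in replicates 1, 2 and 3, so that diploid replicate 1 matched the monosomics.

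Outside the block the largest rise was that of Zm00004b010964, with 16, 18.3 and 13.6 CPM in trisomics. It had 0 reads in all monosomic and all diploid libraries, and was at least 93.4-fold higher in trisomics than in monosomics by the same floor (edgeR adjusted p = 4.97e-05). This gene was thus read in trisomics alone among the 10 libraries of series 2.

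The largest fall inside the block, among only 4 genes that met the rule there, was that of Zm00004b003231, against the direction of its copy number. It had 0.702, 0.797 and 0.427 CPM in trisomics, against 5.47, 7.31, 19.3 and 6.75 CPM in monosomics, which is -3.89 (SE 0.54) as a log2 fold change, with an edgeR adjusted p of 5e-04. Monosomic replicate 3 was well above the other monosomics, and all of them lay above the trisomics. The mean over the 7 libraries was 5.82 CPM, but 3.58 CPM without that replicate, which is under the minimum for naming. The diploids, at 0.627, 1.04 and 1.58 CPM, were near the trisomic level.

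The largest fall outside the block was that of Zm00004b014615. It had 0, 0 and 1 reads in trisomics, against 451, 158, 65 and 147 reads in monosomics, and 32, 9 and 24 reads in diploids. Its reads were thus fewer at each added copy of 1L, and no groups overlapped. The ratio of trisomics to monosomics rests on 1 read in the trisomic libraries, so no fold is given (edgeR adjusted p = 0.000134).

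Some genes were read in only 1 of the 2 groups. A threshold of 10 reads or more in each trisomic library, with no more than 3 in all monosomics together, was met by 30 genes. Of these, 11 (36.7%) lay in the block, which makes up 7.91% of all identifiers. With 3 copies against 1, block genes meet this rule more easily than other genes, so the 2 shares are not a like comparison. The count of 30 was 46 without trisomic replicate 3. The reverse pattern was found for 13 genes, none of which lay in the block. By its share few of 13 would lie there in any case, and the copy ratio makes this pattern harder to meet for block genes. The count of 13 was 23, 22 and 24 without trisomic replicates 1, 2 and 3, and 20 without monosomic replicate 3. By the rule, leaving out a library can only keep or raise either count. Of the 19 genes outside the block read in trisomics, 15 had at most 3 reads in all diploids together. Of the 11 in the block only 3 did, but 10 of them had at most 1 read in diploid replicate 1, which thus resembled the monosomics in these genes. The sources used here do not give the plants' genotype at these genes, and its part in the result was not tested.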

How the data were processed

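Per the labels' protocols, leaf RNA was extracted with TRIzol and sequenced as poly(A)-enriched TruSeq libraries. Bowtie, TopHat, Cufflinks and Cuffdiff were used per the submitters' processing notes, which give no roles. The sources used here give no versions, genome build, strand setting or rule for reads shared by near-identical genes. Deposited counts are whole reads per gene model, 1 column per library, and were used as they stand. The deposited RPKM values equal those counts per kilobase and library total (100% of 261100 values within 0.1%). They gave gene model lengths and 1 alternative test. The 2 DNA libraries were not analysed here.

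All 10 series 2 libraries, at 14115560 to 19860440 reads, were fitted in edgeR 4.0.16 (R 4.3.3) with TMM, filterByExpr and robust quasi-likelihood F-tests, two-sided, with group as the only term. CPM are counts scaled to a common TMM-adjusted library total, and 2 was added as prior count before means of logs. Intervals are 95%. The departure test added the log of the 1L copy number as an offset for block genes. Series 1, at 13199571 to 18923160 reads, was fitted alike. The script was tested on simulated data. A gene was named if it had the largest change in its direction, inside or outside the block, among those past 0.05 with a mean of at least 5 CPM and no overlap of groups. Alternatives changed scaling, filter, tool (DESeq2 1.42.0, limma 3.58.1 on log2(RPKM + 1)), libraries, edges and blocking. The block, the lists and the comparison were chosen with earlier results of these data known. Reads carry no molecular identifiers, so counting error covers only part of their variation.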

Additional observations from a re-analysis of the deposited data

Results flagged for a closer look

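Among the 4 monosomic libraries, replicate 3 had a block share of 3.919% of its reads, where the others had 4.34, 4.29 and 4.283%. Its gap to the nearest of them was most of the group's range. In the gene-by-gene measure of the block the same library, at -0.775, was not apart. Zm00004b003231 had 19.31 CPM in monosomic replicate 3, against 5.47, 7.31 and 6.75 CPM in the others, and was flagged for the same reason. Chance flags about 1 in 20 such groups, and 6 quantities were checked.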

How the results depend on the processing

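The higher level of the block in trisomics kept its direction in every alternative run, and its relative expression differed by 0.976 (mean log2(RPKM + 1)) to 1.596 (summed counts), and by 1.165 without a filter. Median log2 fold changes inside the block were 1.503 with TMM outside the block, 1.373 without a filter, 0.889 with limma-trend on log2(RPKM + 1), 1.459 with either replicate block and 1.417 to 1.455 without 1 replicate. Outside the block they were -0.026 with TMM outside the block, -0.083 under the stricter filter, -0.046 with replicate numbers blocked, -0.065 with S numbers blocked, and -0.103 to -0.063 without 1 replicate.

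The count of called genes, 3222, was 2094 with the stricter filter and 2044 to 3546 without 1 replicate. Calls outside the block, higher minus lower, were -316, but 67 with TMM outside the block and -432 to 7 without 1 replicate, above 0 only without trisomic replicate 1. Of all 1479 departures from the copy ratio, 698 were called with the stricter filter, 2647 with DESeq2, 2743 with limma-trend, 907 with the compared libraries alone and 349 to 1818 without 1 replicate. Block genes below the ratio numbered 75 with the stricter filter, 247 with DESeq2, 1021 with limma-trend, whose log2(RPKM + 1) compresses low levels, and 42 to 176 without 1 replicate. Those above it numbered 31 with the stricter filter, 17 with limma-trend and 19 to 67 without 1 replicate. With at least 30 reads, 10 and 2 genes were read in trisomics or monosomics alone. With at least 10 reads the counts were 30 and 13, and 31 to 46 and 15 to 24 without 1 replicate. By the rule itself, a higher threshold can only keep or lower these counts. Leaving out a library can only keep or raise them, so the direction of these shifts was fixed beforehand. The cause of the other shifts was not tested.

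Same-numbered trisomic and monosomic libraries did not deviate together. Their deviations correlated at 0.01, -0.06 and 0.19 by replicate number, and at 0.15, -0.27 and 0.04 by S number, so both blocks use a shared number only and 6 libraries. With the replicate number as a block 2696 genes were called, with 838 departures, 81 block genes below and 37 above the ratio. With the S number as a block there were 1530, 60, 8 and 6. Paired differences of the block's relative expression were 1.464 and 1.458, with an exact p of 0.25, the smallest 3 pairs can give. Of the 4 named genes, Zm00004b003818 missed the threshold without a filter (adjusted p = 0.0512), and no other call on them was lost where they were tested. Shares of outside genes with the same direction in series 1 tetrasomics stayed at 69.3 to 73.9% for rises and 83.3 to 84.3% for falls, also without series 1 diploid replicate 1 and with sets chosen without monosomic replicate 3, which were added after seeing the data. At this depth 52% of block genes at or under 3.54 CPM were called, against 91.3% in the highest quartile.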

Other observations

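Outside the block, calls in either direction were spread over all levels of expression. By quartile of mean level, from lowest to highest, 5.51, 4.09, 2.8 and 2.7% of outside genes rose in trisomics, and 6.37, 5.51, 4.71 and 4.81% fell. With the main scaling the share that rose was thus lower among abundant genes, while the share that fell changed less. The balance of rises and falls outside the block depended on the scaling, and these shares were not computed with another. Median log2 fold changes were -0.16 for the lowest quartile and -0.07, -0.08 and -0.1 for the others. Called genes had shorter gene models than the 3860 bases of the median outside gene, at 2840 for those that rose and 3350 for those that fell.

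Within the block, 19 genes, 1.06% of those tested against 13.7% outside it, had intervals below 0, against the direction of their copy number, with a median log2 fold change of -1.27 and a median level of 4.4 CPM. For the 8 of them that fell in the adjusted test, the diploid mean lay between the other groups in 7. In series 1, 7 of the 8 were tested, and their median log2 fold change was -0.22 in tetrasomics against diploids and 0.21 in trisomics against diploids.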
